A study of Drosophila melanogaster with 24 samples.

Results

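The genes followed here are SPARC and 9 genes of the basement membrane, the sheet of matrix under the wing disc epithelium. They were chosen by name: SPARC, vkg, Col4a1, LanA, LanB1, LanB2, trol, Dg, Mmp2 and Timp, 10 of 9011 genes named on the arrays. Each was represented by 1 array feature, and all 10 had enough values to be tested. Wing disc RNA of larvae in the third instar was compared on 24 arrays of 2 colours, 6 at each of 4 time points (0, 12, 24 and 48 h). One RNA of an array came from tub>dmyc>Gal4 discs, in which the ubiquitous tubulin promoter drives Drosophila Myc from a removable cassette, and the other from tub>cd2>Gal4 control discs, whose cassette carries cd2. Both genotypes received the same heat shock, which gave discs mosaic for GFP and non-GFP clones, and RNA was taken from whole discs, so a ratio is an average over both kinds of cell. The dmyc discs are a model of cell competition, the elimination of viable cells by fitter cells beside them. The cd2 discs are mosaic in the same way but lack both the dmyc cassette and this competition. A ratio of whole discs thus holds the effects of Myc expression and of competition together, and these cannot be told apart here.

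Basement membranes are built on laminin, a trimer of an alpha, a beta and a gamma chain, and on networks of type IV collagen joined to it, with the proteoglycan perlecan bound between them. Cells hold on to the sheet through receptors such as integrins and dystroglycan, and remodel it with matrix metalloproteinases, which tissue inhibitors block. SPARC is a secreted glycoprotein that binds type IV collagen and is needed for its stable deposition. In Drosophila larvae much of the type IV collagen of the wing disc is made in the fat body and reaches the disc through the blood, while blood cells, and the myoblasts attached to the disc, also make matrix proteins.

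Every value below is a log2 ratio from an array centred on its median, likely dmyc over cd2, so that a positive number means more RNA in dmyc discs. The order of names in the sample titles is the basis of that direction, and logarithms to base 2 are an assumption. At each time the means of both dye orientations correlated across features (r 0.56 to 0.70), so no array was turned. Of 108 comparisons between arrays of the same orientation at different times, 8 had a correlation under -0.3 across features, the lowest -0.75, and all 8 included a 0 h array. The labels state the dyes and the time points could differ in this way, so the direction was kept. A reversal of a whole time would not have shown in these checks. The 0 h arrays in those 8 comparisons were replicates 2, 3, 5 and 6. Within 0 h, replicates 1 and 2 had r -0.01 and replicates 4 and 5 r -0.002 in the same orientation. Replicates 1 and 3 and replicates 4 and 6 had r 0.24, replicates 2 and 3 r 0.51, and replicates 5 and 6 r 0.42. A ratio gives no level, so levels of different genes cannot be set side by side and the tissue could not be checked by its markers. In whole discs, fewer cells of a type and less RNA per cell cannot be told apart.

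Each array had 1 best match of the same time and opposite dye, its partner (r 0.52 to 0.90). Whether partners hold the same RNA and whether replicates came from separate larvae is not stated, so p-values describe the spread among these arrays alone, which may be technical. Partners were alike (correlation 0.443 as fitted), so p-values from 24 arrays taken as independent can be too small. Each adjusted p below comes from limma over all 10661 features at a threshold of 0.05, and the value with partner pairs as a random block stands beside the calls made with all arrays. When partners were averaged instead, leaving 3 values a time, 1 of the calls below passed, that of SPARC for 12 h against 0 h (adjusted p 0.0351), where 3.22% of features did. With that averaging 0 of the 10661 features passed at 0, 12 and 24 h or for the 24 and 48 h changes since 0 h.

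Over the time course, SPARC and trol were lower in dmyc discs at 0 h, vkg was higher at 12 h, and LanA, LanB2 and Dg were lower at 24 h. No member passed at 48 h, where 6.29% of all features did. The median ratio of the 10 genes was -0.08, 0.02, -0.03 and -0.06 at the 4 times, against medians within 0.004 of 0 over all features.

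**Figure D1:**
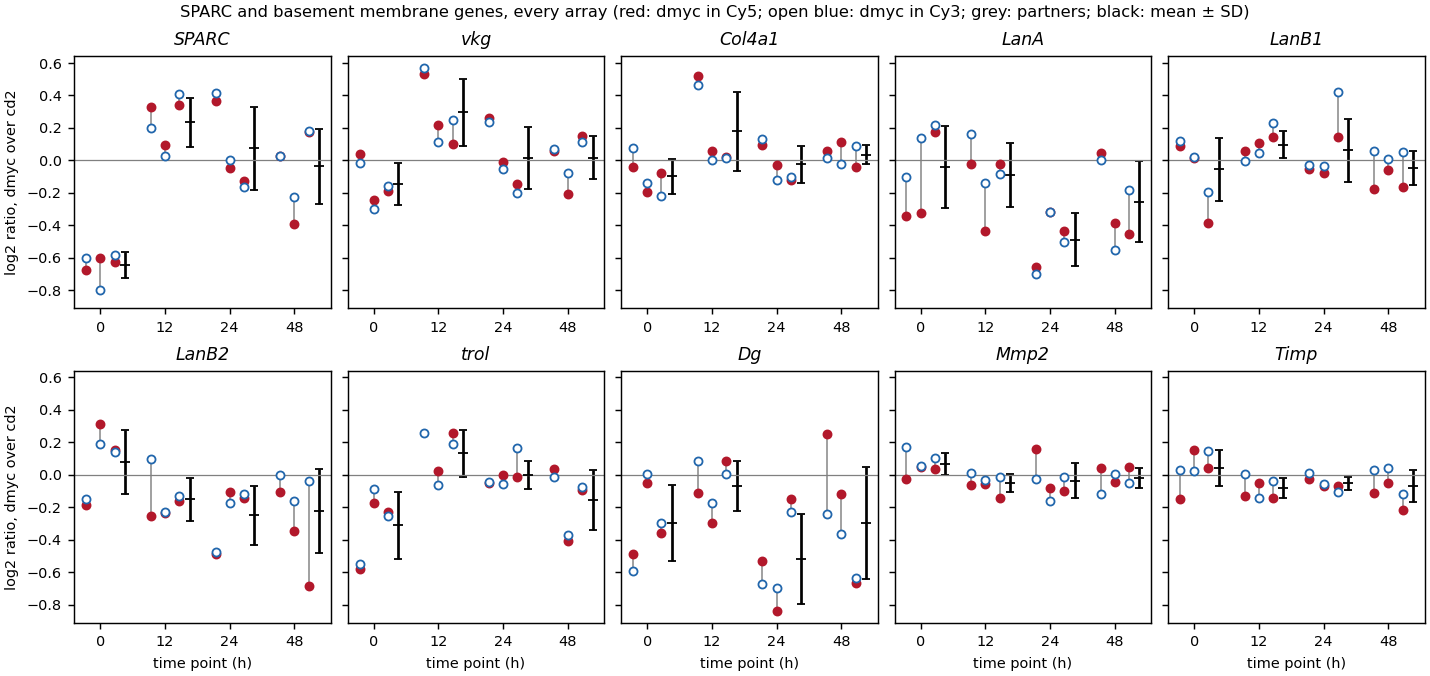
Log2 ratio of dmyc over cd2 (vertical axis) for each gene on every array at each time point (horizontal axis, h, evenly spaced), with red points for dmyc in Cy5, open blue points for dmyc in Cy3, grey lines joining partners and black bars for the mean ± SD (n = 6, 5 for trol at 12 h). All 6 SPARC points at 0 h lie between -0.80 and -0.58, below every SPARC point of the later times, while the points of Mmp2 and Timp stay near 0.

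At 0 h the SPARC ratio ran from a lowest array of -0.80 through a median of -0.615 to a highest of -0.58. All 6 arrays were thus low, and they lay close together (mean -0.65, SD 0.08, n = 6). The fitted ratio corresponds to 0.639 of the control level (SE of the log2 value 0.08, adjusted p 0.000135, and 0.000595 with the pair block), and 0.319% of all features lay lower. At 12 h the arrays ran from 0.03 to 0.41 with a median of 0.26, all above 0 and none overlapping the 0 h arrays. The 12 h mean of 0.23 (SD 0.15) missed the threshold (adjusted p 0.0605). It passed without 12 h replicate 5 (0.28, adjusted p 0.0456) or the 12 h pair of replicates 2 and 5 (0.32, 0.0412), and when 24 h replicate 5 (0.0452), 48 h replicate 2 (0.0424), the 24 h pair of replicates 1 and 5 (0.0269) or the 48 h pair of replicates 2 and 5 (0.0373) was left out. At 24 h the arrays ran from -0.17 to 0.42 with a median of -0.02, with 3 above and 3 below 0. At 48 h they ran from -0.39 to 0.18 with a median of 0.03, and 4 were above 0. The partner pairs of the later times differed more than those of 0 h. Pair means lay between -0.70 and -0.60 at 0 h, but between -0.15 and 0.39 at 24 h and between -0.31 and 0.18 at 48 h.

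SPARC was the member with the largest change since 0 h. Its ratio rose by 0.88 ± 0.11 (SE) at 12 h (adjusted p 4.32e-05, 0.000202 with the pair block), by 0.72 ± 0.11 at 24 h (0.000338, 0.00194 with the block) and by 0.61 ± 0.11 at 48 h (0.00553, 0.0235 with the block). The arrays of each later time lay wholly above those of 0 h. These 3 changes share the 0 h arrays, so they are not separate evidence. None of the steps between later times passed, with -0.16 ± 0.11 from 12 to 24 h and -0.11 ± 0.11 from 24 to 48 h. Leaving out any 1 array or any 1 partner pair kept the 0 h call and all 3 changes past the threshold.

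The genes vkg and Col4a1 encode the alpha2 and alpha1 chains of type IV collagen and are next to each other on chromosome arm 2L, with 0 protein-coding genes between them. At 0 h vkg ran from -0.30 to 0.04 with a median of -0.17, and Col4a1 from -0.22 to 0.07 with a median of -0.11. Both were below 0 on 5 of 6 arrays, and neither passed (adjusted p 0.176 and 0.299). With array weights vkg passed at 0 h (-0.18, adjusted p 0.0201), as did 3110 of 10661 features. At 12 h vkg ran from 0.10 to 0.57 with a median of 0.23, higher in dmyc discs on 6 of 6 arrays (0.30 ± 0.07, adjusted p 0.0111, 0.0391 with the block). Col4a1 ran from 0.001 to 0.52 at 12 h, also above 0 on 6 of 6 arrays, but its median was 0.04 and its mean of 0.18 (SD 0.24) did not pass (adjusted p 0.0676). Col4a1 passed when 12 h replicate 5 (0.21, adjusted p 0.0478), the pair of replicates 2 and 5 (0.25, 0.0374) or the pair of replicates 3 and 6 (0.26, 0.0494) was left out. Replicates 1 and 4, a partner pair, stood apart from the other 12 h arrays for both chains, with pair means of 0.55 for vkg and 0.49 for Col4a1 against 0.16 and 0.17 for vkg, and 0.03 and 0.02 for Col4a1, in the other pairs. Without that pair vkg was 0.17 at 12 h (adjusted p 0.18), and without 12 h replicate 1 alone it was 0.25 (0.0521). At 24 and 48 h neither chain passed, with means between -0.03 and 0.04.

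From 0 to 12 h the vkg ratio rose by 0.44 ± 0.10 (adjusted p 0.0025, 0.00733 with the block), and no 12 h array overlapped a 0 h array. The Col4a1 ratio rose by 0.28 ± 0.08 (adjusted p 0.0206), a call that was lost with the pair block (0.0504) and without the 12 h pair of replicates 1 and 4 (0.12, adjusted p 0.161). It was also lost without the 0 h pair of replicates 2 and 5 (0.24, 0.0965) or 3 and 6 (0.25, 0.0992). Omitting 0 h replicate 6 (0.0532) or 12 h replicate 1 (0.0552) or 4 (0.0539) lost it as well. So did a fit of the 0 and 12 h arrays alone (0.0748). The vkg rise passed without any 1 array or pair, and was 0.31 without the 12 h pair of replicates 1 and 4. On each 12 h array vkg stood above Col4a1, by 0.12 ± 0.07 (SD, n = 6). Over 16 such comparisons between chains of collagen or of laminin an exact two-sided sign-flip test gave p 0.0312 here, the smallest that 6 arrays allow, and 0.125 after Benjamini-Hochberg adjustment. On partner means the smallest possible p is 0.25.

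At 0, 12 and 24 h the pair with the highest ratios of fat body markers also had the highest vkg, and at 48 h it had the lowest. Of the 8 fat body genes listed 3 were measured (Fbp1, Fbp2 and apolpp). Their mean ratio on single arrays ran from -1.22 to 1.16 at 0 h, from -0.47 to 1.16 at 12 h, from -0.74 to 1.68 at 24 h and from 0.49 to 2.17 at 48 h. The 3 genes differed from each other. Their fitted ratios ran from -0.08 to 0.40 at 0 h and from -0.35 to 0.73 at 12 h. At 24 h they ran from -0.17 to 0.47, and at 48 h from 0.20 to 2.22. Of the 3, 1 passed as higher at 48 h, where 3.10% of features did, and 0 with the pair block. The 12 h pair of replicates 1 and 4, which was highest for both collagen chains, had the highest fat body mean at 12 h (1.14). The 24 h pair of replicates 1 and 5 was highest for vkg (0.25), Col4a1 (0.11), SPARC (0.39) and the fat body mean (1.57) of that time. At 0 h the pair of replicates 1 and 4 was highest for vkg (0.01), Col4a1 (0.02) and the fat body mean (1.15), and lay between the other pairs for SPARC (-0.64). At 48 h the order differed: the pair of replicates 2 and 5 had the highest fat body mean (2.04) and the lowest vkg (-0.14) and SPARC (-0.31), while its Col4a1 (0.05) was the highest of the 3 pairs. The SPARC values at 0 h were alike in pairs whose fat body means were 1.15, -1.16 and 0.46. The part of fat body RNA in the collagen and SPARC ratios was not tested.

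**Figure D2:**
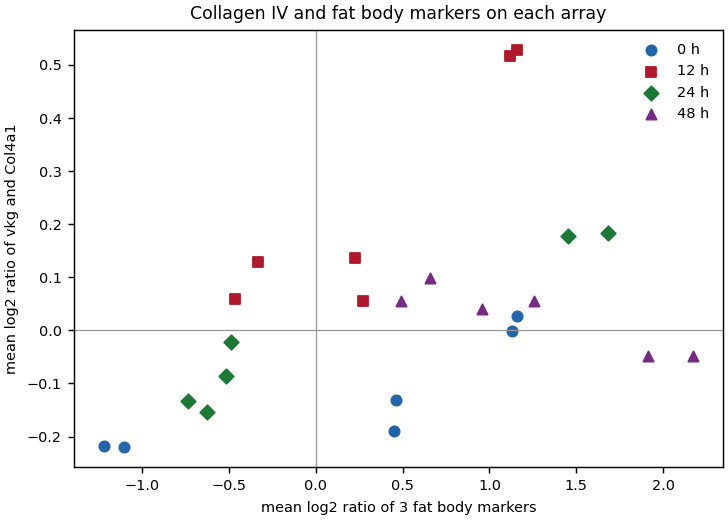
Mean log2 ratio of vkg and Col4a1 (vertical axis) against the mean log2 ratio of 3 fat body markers (horizontal axis), 1 point per array, with symbols for the 4 time points. The 12 h and 24 h arrays with the highest collagen values are also those with fat body means above 1, while the 48 h arrays with the highest fat body means have the lowest collagen values of that time.

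The gene trol encodes perlecan, the large heparan sulfate proteoglycan of the sheet. At 0 h its ratio ran from -0.58 to -0.09 with a median of -0.24, below 0 on 6 of 6 arrays (-0.31 ± 0.07, adjusted p 0.00436, 0.0151 with the block). The pair of replicates 1 and 4 was lowest, at -0.565, and without it trol was -0.18 and did not pass (adjusted p 0.0649). At 12 h trol was measured on 5 arrays and ran from -0.06 to 0.26 with a median of 0.19, above 0 on 4 of them, and did not pass (0.13, adjusted p 0.27). All 5 lay above every 0 h array, and the ratio rose by 0.44 ± 0.10 (adjusted p 0.00275, 0.00634 with the block). At 24 h the arrays lay between -0.06 and 0.16 and the rise since 0 h was 0.31 ± 0.09 (adjusted p 0.0229). That call was lost with the pair block (0.0523), without 0 h replicate 4 (0.0513) or 24 h replicate 4 (0.0547), and without the 0 h pair of replicates 1 and 4 (0.18, adjusted p 0.129), the 0 h pair of replicates 3 and 6 (0.0546) or the 24 h pair of replicates 3 and 4 (0.0961). At 48 h trol ran from -0.405 to 0.03 with a median of -0.09, below 0 on 5 of 6 arrays, and did not pass (adjusted p 0.173).

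**Figure D3:**
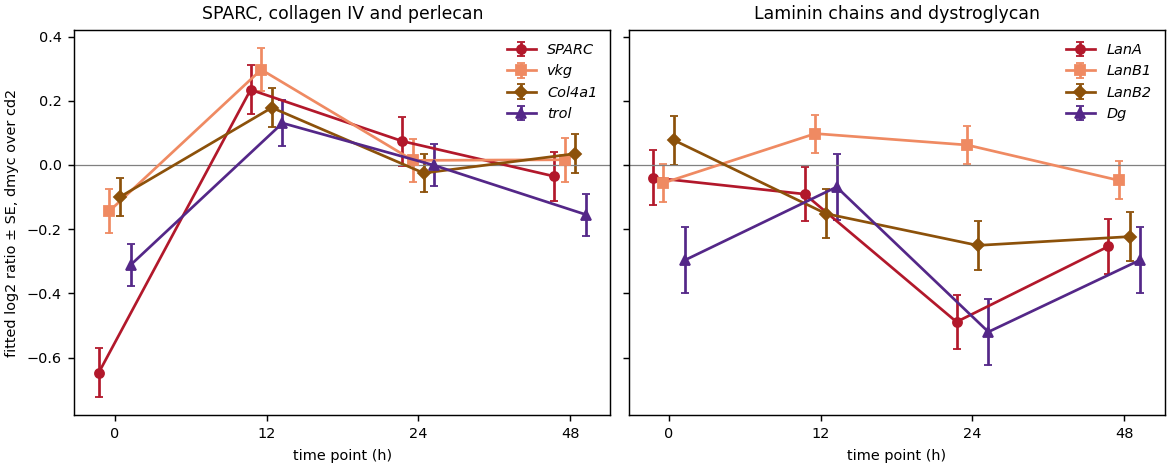
Fitted log2 ratio of dmyc over cd2 with its SE (vertical axis) at the 4 time points (horizontal axis, h, evenly spaced, points shifted sideways for clarity), for SPARC, both collagen IV chains and trol on the left and for the laminin chains and Dg on the right. The genes on the left have their lowest value at 0 h and their highest at 12 h, and LanA and Dg have their lowest at 24 h.

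Of the laminin chains, LanA (alpha) and LanB2 (gamma) were lower in dmyc discs at 24 h, while LanB1 (beta) passed at no time. LanA ran from -0.70 to -0.32 at 24 h with a median of -0.47, below 0 on 6 of 6 arrays (-0.49 ± 0.08, adjusted p 0.00272, 0.0214 with the block). The pair of replicates 1 and 5 was lowest, at -0.68, and without it LanA was -0.39 (adjusted p 0.0534). Of all features 0.385% lay lower. At 0 h LanA had 3 arrays on either side of 0, from -0.34 to 0.215, and at 12 h it ran from -0.44 to 0.17 with a median of -0.05. At 48 h it ran from -0.55 to 0.05 with a median of -0.28 and did not pass (-0.25, adjusted p 0.077). On omitting 48 h replicate 1 (-0.33, adjusted p 0.0332) or its pair of replicates 1 and 4 (-0.39, 0.0196) LanA passed. From 0 to 24 h its ratio fell by 0.45 ± 0.12 on the log2 scale (adjusted p 0.0121, 0.0456 with the block). That call was lost without the 0 h pair of replicates 3 and 6 (-0.33, 0.116) or the 24 h pair of replicates 1 and 5 (-0.35, 0.0741). The arrays of these 2 times overlapped.

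LanB2 ran from -0.49 to -0.11 at 24 h with a median of -0.16, below 0 on all 6 arrays. Its mean of -0.25 ± 0.08 passed narrowly (adjusted p 0.0433) and was lost with the pair block (0.165) and on omitting replicates 1 and 5, the lowest pair at -0.48 (-0.14, adjusted p 0.404). The call was also lost when any of 24 h replicates 1, 3, 4, 5 and 6 was left out, with adjusted p between 0.0504 and 0.172. It was lost likewise, with the value itself unmoved, on omitting 0 h replicate 5 or 6, 12 h replicate 1, 2 or 3, or 48 h replicate 5 (0.05 to 0.0509). The same held for the 0 h pair of replicates 3 and 6, the 12 h pairs of replicates 2 and 5 and of 3 and 6, and the 48 h pair of replicates 2 and 5 (0.053 to 0.0557), and for the 24 h pair of replicates 3 and 4 (-0.31, 0.0569). At 48 h LanB2 ran from -0.69 to -0.001, again with all 6 arrays below 0, and did not pass (-0.22, adjusted p 0.0814). Against 0 h the 48 h ratio passed on omitting 0 h replicate 1 (-0.34, adjusted p 0.0484), replicate 4 (-0.36, 0.0427) or both (-0.42, 0.0147), and the 12 h ratio on omitting both (-0.35, 0.0212). With array weights the LanB2 changes since 0 h passed at 12 h (-0.31, adjusted p 0.0134) and 48 h (-0.38, 0.0155). For these changes 3770 and 1789 of 10661 features passed with the weights. The LanB2 change from 0 to 24 h was -0.33 ± 0.11 (adjusted p 0.0341, 0.124 with the block). That call was lost without any of 0 h replicates 2, 3, 5 and 6 or 24 h replicates 1 and 5 (0.0623 to 0.0946). It was lost without the 0 h pair of replicates 2 and 5 (-0.24, 0.188) or 3 and 6 (-0.29, 0.15). The same held for the 24 h pair of replicates 1 and 5 (-0.21, 0.207) and for a fit of the 0 and 24 h arrays alone (0.0509). LanB1 means lay between -0.06 and 0.10 at the 4 times. At 24 h LanB1 ran from -0.08 to 0.42 with a median of -0.03, and its pair of replicates 3 and 4 was high (0.28). On each 24 h array LanA lay below LanB1, by 0.55 ± 0.25 (SD, n = 6), LanB2 lay below LanB1, by 0.31 ± 0.20, and LanA lay below LanB2, by 0.24 ± 0.09. Each of these differences had an exact sign-flip p of 0.0312 and 0.125 after adjustment over the 16 comparisons, so none passed.

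Dg encodes dystroglycan, a receptor that links laminin and perlecan to the cytoskeleton. At 24 h it ran from -0.84 to -0.15 with a median of -0.60, below 0 on 6 of 6 arrays (-0.52 ± 0.10, adjusted p 0.0048, 0.0236 with the block). The pairs of replicates 1 and 5 and of 2 and 6 were low (-0.60 and -0.77) and that of replicates 3 and 4 was nearer 0 (-0.19). Without the pair of replicates 1 and 5 the ratio was -0.48 (adjusted p 0.065). At 0 h Dg ran from -0.59 to 0.005, below 0 on 5 of 6 arrays, and missed the threshold (-0.30, adjusted p 0.0633). It passed at 0 h without 0 h replicate 5 (-0.37, adjusted p 0.045), 48 h replicate 1 (0.0379), the 0 h pair of replicates 2 and 5 (-0.43, 0.0494), the 24 h pair of replicates 3 and 4 (0.0458) or the 48 h pairs of replicates 1 and 4 (0.04) or 3 and 6 (0.0403). With array weights Dg passed at 0 h too (-0.24, adjusted p 0.0438), as did 3110 of 10661 features. At 12 h it had 3 arrays on either side of 0. At 48 h it ran from -0.665 to 0.25 with a mean of -0.30 (SD 0.34, adjusted p 0.0888), and it passed on omitting replicate 1 (-0.41, adjusted p 0.0223) or replicates 1 and 4 (-0.45, 0.0274). No change of Dg between times passed, including the step of -0.45 ± 0.15 from 12 to 24 h (adjusted p 0.534).

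Mmp2, a membrane-bound matrix metalloproteinase, and Timp, the tissue inhibitor of metalloproteinases, had no mean further from 0 than 0.08 at any time. The Mmp2 means were 0.07, -0.05, -0.04 and -0.02 at the 4 times and those of Timp 0.04, -0.08, -0.05 and -0.07. No array exceeded 0.17 in Mmp2 or 0.22 in Timp in either direction. With all 24 arrays weighted equally neither passed at any time or for any change, the lowest adjusted p being 0.0664 for the Timp change from 0 to 12 h (-0.12 ± 0.05, 95% interval -0.22 to -0.02). With array weights the Timp changes since 0 h passed at 12 h (-0.15, adjusted p 0.00892), 24 h (-0.13, 0.0383) and 48 h (-0.14, 0.0487). That of Mmp2 passed at 12 h (-0.12, 0.0305). With these weights 3770, 3308 and 1789 of 10661 features passed for the 12, 24 and 48 h changes. After quantile normalization Timp passed at 12 h (-0.15, 0.0493), as did 2455 of 10661 features. In a fit of the 0 and 12 h arrays alone the Mmp2 change passed (-0.11, 0.0283), as did 2565 of 10661 features. Small shifts since 0 h also passed on omitting single arrays. For Timp this was 0 h replicate 1, with -0.16 at 12 h (adjusted p 0.0142), -0.13 at 24 h (0.0484) and -0.14 at 48 h (0.0457), or its pair of replicates 1 and 4 (-0.17, -0.14 and -0.16, with 0.011, 0.0359 and 0.0308). For Mmp2 it was 24 h replicate 1, with -0.11 at 12 h (0.0413) and -0.14 at 24 h (0.0242), or the 24 h pair of replicates 1 and 5 (0.0439 at 12 h, and -0.15, 0.0289 at 24 h).

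**Figure D4:**
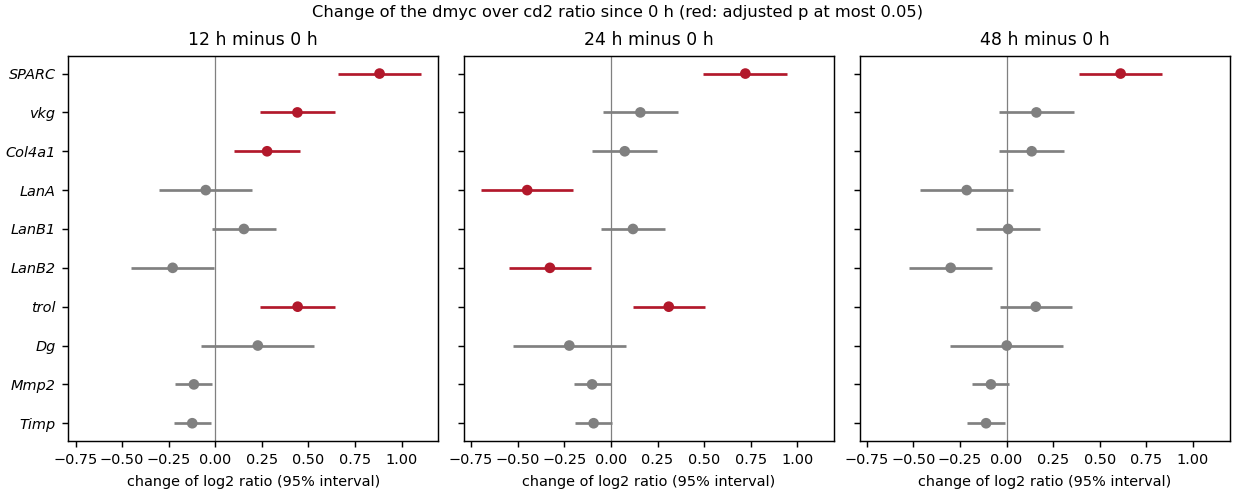
Change of the log2 ratio since 0 h (horizontal axis) with its 95% interval for each gene (vertical axis) at 12, 24 and 48 h, red where the adjusted p was at most 0.05. In red, SPARC lies to the right at all 3 times, vkg and Col4a1 at 12 h, trol at 12 and 24 h, and LanA and LanB2 to the left at 24 h.

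Counts over all features give the background for these calls. At 0 h 2 of 10 genes passed as lower, where 8.24% of features did. At 12 h 1 passed as higher (5.32% of features) and at 24 h 3 as lower (4.39%), while at 48 h none did (6.29% in either direction), although 4 of the 10 had an unadjusted limma p under 0.05 there. With partner pairs as a random block the counts were 2, 1, 2 and 0, and 4.83%, 1.34%, 1.61% and 1.91% of features passed in either direction. For the change since 0 h, 4 genes rose at 12 h, where 15.1% of features did. At 24 h 2 rose (12.2%) and 2 fell (8.08%), and at 48 h 1 rose (3.78%). With the pair block 3, 2 and 1 genes passed for these changes, where 12.4%, 8.63% and 0.131% of features did. Arrays of 0 h and 12 h did not overlap for 3 of 10 genes, against 8.89% of features, those of 0 h and 24 h for 2 (7.34%) and those of 0 h and 48 h for 1 (2.73%). Of the steps from 12 to 24 h and from 24 to 48 h limma called 0 members, with 4 and 0 at an unadjusted p under 0.05, and 0% and 0.0938% of features passed. The moderated F test for any change over time passed for SPARC (adjusted p 0.000181), trol (0.0118), vkg (0.0146) and LanA (0.0311), where 19.7% of features did. With the pair block, where 6.97% of features passed, SPARC (0.00106), trol (0.0287) and vkg (0.0414) passed and LanA was lost (0.121).

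The members fell into unlike patterns across arrays. As a description over 24 arrays that share their times and partners, vkg and Col4a1 had a Pearson correlation of 0.84. Among 6966 genes Col4a1 ranked 3 in likeness to vkg, and vkg ranked 17 in likeness to Col4a1. Their correlation was 0.75 once each time's mean was removed. SPARC and vkg had 0.76 (0.68 within times) and SPARC and trol 0.69 over 23 arrays (0.28 within times). LanA and LanB2 had 0.65 (0.57 within times), while SPARC and LanB2 had -0.55 (-0.29 within times). The genes most like SPARC across arrays were CG7945 (r 0.88), EMC7 (0.88), CG2076 (0.86), Nipsnap (0.86) and CG9331 (0.85). Their ratios were between -0.40 and -0.23 at 0 h and between 0.09 and 0.49 at 12 h, so none was as low as SPARC at 0 h. Most like the mean of both collagen chains were Idgf4 (0.92), CG15293 (0.90), CG2145 (0.89), CG3984 (0.88) and Tps1 (0.88). At 12 h these 5 stood between 0.42 and 0.86. Both sets of 5 were picked by likeness on these same arrays, so their similar time courses follow from that choice.

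Of 57 other genes of the matrix and its receptors, 44 were measured. None passed as higher at any single time, where 3.84%, 5.32%, 3.75% and 3.10% of features did at 0, 12, 24 and 48 h. As lower, 2, 2, 3 and 1 passed at these times, where 8.24%, 2.97%, 4.39% and 3.19% of features did, and with the pair block 0 passed at each time. Unadjusted limma p-values were under 0.05 for 10, 6, 14 and 7 of the 44. From 0 to 12 h 5 rose and 3 fell (15.1% and 8.75% of features), with a median of -0.01 against 0.00 over all features, and 2 of the 8 calls were kept with the pair block.

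Among 7 measured genes for the modification and secretion of collagen, PH4alphaEFB, a prolyl 4-hydroxylase acting on collagen, was lower at 0 h on 6 of 6 arrays (-0.17 ± 0.05, adjusted p 0.0249, 0.122 with the block). Its ratio rose by 0.31 ± 0.07 at 12 h (adjusted p 0.00333, 0.0263 with the block) and by 0.33 ± 0.07 at 24 h (0.00299, 0.0246 with the block). A related hydroxylase gene, PH4alphaMP, fell by 0.22 at 12 h (adjusted p 0.0473, 0.242 with the block). Of 5 integrin genes, mys, the main beta subunit, was lower at 12 h (-0.12, adjusted p 0.0416) and 24 h (-0.14, 0.0282), and both calls were lost with the pair block (0.215 and 0.171).

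Of 8 integrin adhesion genes, parvin, which binds the integrin-linked kinase, rose since 0 h by 0.34 at 12 h (adjusted p 0.0134, 0.0289 with the block) and by 0.39 at 24 h (0.00778, 0.0191 with the block). The paxillin gene Pax rose by 0.17 at 12 h (0.0432), and stck, the PINCH adaptor, stood at -0.16 at 12 and 24 h (0.0356 and 0.0347) and fell by 0.18 since 0 h at 12 h (0.0481). These 4 calls were lost with the pair block (0.111, 0.152, 0.15 and 0.154). Of 7 dystroglycan partners and glycosyltransferases, tw, a protein O-mannosyltransferase that acts on dystroglycan, was lower at 0 h (-0.29, adjusted p 0.0437) and rose by 0.38 at 12 h (0.0355), and the syntrophin gene Syn1 fell by 0.23 at 12 h (0.0425). All 3 were lost with the block (0.119, 0.0901 and 0.195).

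Of the 5 other proteases, AdamTS-B was lower at 48 h (-0.21, adjusted p 0.0497, 0.258 with the block) and AdamTS-A rose by 0.18 at 12 h (0.0142, 0.0543 with the block). Of 6 genes for heparan sulfate proteoglycans and their enzymes, ttv, a heparan sulfate polymerase, was lower at 24 h (-0.23, 0.047, 0.162 with the block). Of the 6 other basement membrane proteins measured (wb, Ndg, Pxn, Ppn, Mp, Tig and loh were listed) limma called 0 at any time, with 0, 1, 1 and 2 at an unadjusted p under 0.05. Their ratios lay between -0.29 and 0.63.

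**Figure D5:**
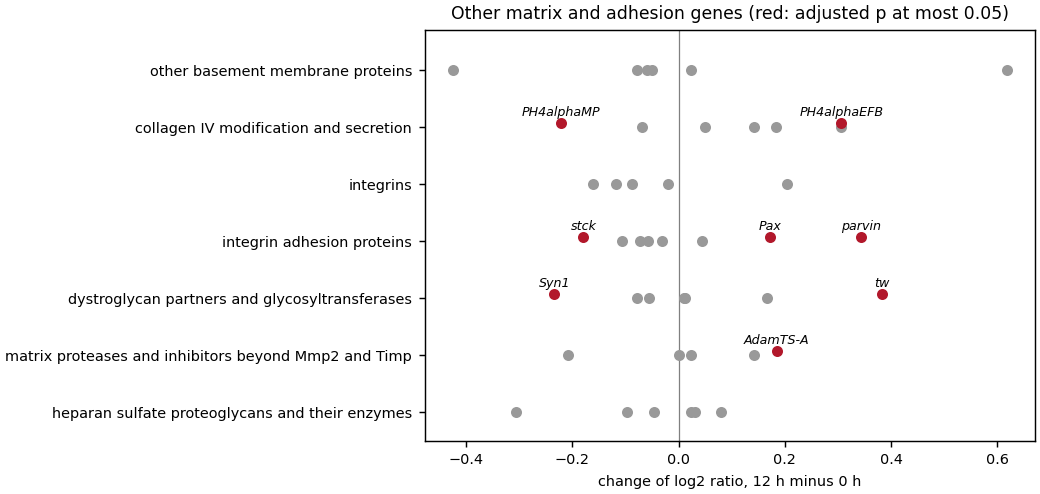
Change of the log2 ratio from 0 to 12 h (horizontal axis) for 44 other matrix and adhesion genes, 1 point each, by list (vertical axis), with the genes whose adjusted p was at most 0.05 in red and named (red points raised slightly). The 8 red points lie on both sides of 0, between -0.23 and 0.38.

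Markers of other cells that make matrix were read on the same arrays. The mean of 6 of 10 hemocyte genes measured was above 0 on 5 of 6 arrays at 0 h (-0.07 to 0.31). It was below 0 on all 6 at 12 h (-0.33 to -0.08), opposite to vkg and SPARC. Of these 6 genes 1 was higher at 0 h and 1 lower at 12 h, where 3.84% and 2.97% of features were. From 0 to 12 h 3 fell, where 8.75% of features did. With the pair block 1, 0 and 1 passed. The mean of 5 of 8 myoblast genes was below 0 on 6 of 6 arrays at 0 h (-0.28 to -0.02) and above 0 on 5 of 6 at 12 h (-0.09 to 0.13), the same directions as SPARC. Of the 5, limma called 0 at any time, with 2, 0, 0 and 0 at an unadjusted p under 0.05. From 0 to 12 h their changes lay between 0.03 and 0.27. For that change 1 of the 5 passed as higher, where 15.1% of features did, and 0 with the pair block. The mean of 4 of 6 tracheal genes was below 0 on all arrays at 0 h (-0.22 to -0.04) and above 0 on all at 12 h (0.11 to 0.27). The tracheal genes did not move together: at 0 h 1 was higher and 2 lower, where 3.84% and 8.24% of features were, and 1 of these 3 calls was kept with the pair block. From 0 to 12 h verm, which encodes a chitin deacetylase, rose by 1.01 (adjusted p 3.62e-05, 0.000246 with the block), while Gasp, which encodes a chitin-binding protein, fell by 0.50 (0.00486, 0.024 with the block). Of 12 disc epithelium genes measured of 14, 1 was higher and 3 lower at 0 h. At 12 h 1 was higher and 1 lower (5.32% and 2.97% of features), as at 24 h (3.75% and 4.39%), and at each of these 3 times 1 call was kept with the block. From 0 to 12 h nub, a pouch gene, rose by 0.54 (adjusted p 2.13e-05, 0.000246 with the block), while vg, another, fell by 0.54 (0.00186, 0.0124 with the block). These 4 genes were singled out after their values were seen. The part of these cells in the SPARC and basement membrane ratios was not tested.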

How the data were processed

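What the authors deposited is taken to be the log2 ratio of dmyc over cd2 RNA per feature and array, with array medians from -0.01 to 0.008. Per the labels' protocols, RNA went through repeated rounds of linear amplification before labelling with Cy5 or Cy3, and the dyes were exchanged on replicates 4 to 6. Amplification can distort ratios. The sources used here do not give the scanner, the background correction or the normalization, and signal over background is unknown, so precision rests on the number of arrays.

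Of 12359 features, 169 at inferred control positions were left out. Gene names came from the platform annotation, updated through RefSeq (9896 of 10289 features naming 1 gene matched). Arrays were centred on their median, features of a gene averaged, and 4 or more values required among the 6 arrays of each time, leaving 10661 features. All 24 arrays entered a single limma 3.58.1 model (R 4.3.3) with 1 coefficient per time and 1 for dye, with Benjamini-Hochberg adjustment over all features (threshold 0.05). Values after ± are moderated SEs, with a gene's spread pooled over all 24 arrays, unless SD is stated. The model was tested on simulated data.

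The 10 genes, the other lists and the partner pairs were chosen with earlier results of these data known, and the comparisons between collagen or laminin chains after values were seen. Named besides the 10 genes were, of each matrix list, up to 4 genes of lowest adjusted p among those past the threshold at a time or against 0 h, and the 5 genes most like SPARC and most like the collagen mean. Alternatives changed the centring, normalization, dye term, weights, filter, pairing and arrays used. Sequences were not used here.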

Additional observations from a re-analysis of the deposited data

Results flagged for a closer look

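Among 40 sets of arrays (10 genes at 4 times), 2 held an array far from the others, about what chance gives at 1 in 20. These were LanB2 at 12 h on replicate 4 (0.10, the other arrays all below 0) and trol at 24 h on replicate 4 (0.16, the others near 0).

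The ratio differed between time points, by limma's test of the difference itself, in 9 cases. Against 0 h SPARC differed by 0.88 at 12 h, 0.72 at 24 h and 0.61 at 48 h, vkg by 0.44 at 12 h, Col4a1 by 0.28 at 12 h, trol by 0.44 at 12 h and 0.31 at 24 h, LanA by -0.45 at 24 h and LanB2 by -0.33 at 24 h. All 9 share the 0 h arrays.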

How the results depend on the processing

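No call of the 10 genes changed sign under any alternative. The count of genes past the threshold was 2, 1, 3 and 0 at 0, 12, 24 and 48 h, and 4, 4 and 1 for the changes since 0 h at 12, 24 and 48 h. With partners averaged these counts were 0, 0, 0 and 0, and 1, 0 and 0. Of all 10661 features 0 passed at 0, 12 and 24 h and for the 24 and 48 h changes, so there the counts say nothing particular to these genes. At 48 h 58 features passed, and 343 for the 12 h change. Averaging replicates 1 with 4, 2 with 5 and 3 with 6 at every time gave 1, 0, 0 and 0, and 2, 1 and 0. Of 10661 features 92, 2, 13 and 146 then passed at the 4 times, and 877, 325 and 0 for the changes. With partner pairs as a random block the 24 h change fell to 2. With the arrays of a time alone the counts were 1, 0 and 1 at 0, 12 and 24 h, where 494, 53 and 229 of 10661 features passed. The calls lost were those of trol at 0 h (adjusted p 0.0721), vkg at 12 h (0.113), and LanB2 (0.114) and Dg (0.0565) at 24 h. With genes measured on all 24 arrays, which removes trol, the count was 1 at 0 h, where 1169 of 8352 features passed. The LanB2 call at 24 h was also lost without the dye term (adjusted p 0.0517) and after quantile normalization (0.0571). Array weights gave 4 at 0 h, 7 for the 12 h change and 3 for the 48 h change. With these weights 3110, 3770 and 1789 of 10661 features passed, against 1287, 2539 and 675 with equal weights. When 1 array or 1 partner pair was left out, counts ran from 1 to 3 at 0 h, 0 to 3 at 12 h, 0 to 3 at 24 h and 0 to 2 at 48 h, and from 3 to 6, 1 to 5 and 1 to 3 for the changes. Of all features 206 to 1804, 294 to 1072, 139 to 1063 and 235 to 818 passed at the 4 times. For the changes 1254 to 3026, 741 to 2677 and 41 to 1699 passed. The cause of these differences was not tested. The values do not settle whether the labels' replicate numbers pair arrays across times. With each time's mean removed, 15 of 36 same-numbered pairs correlated over 0.1, and 8 of 24 arrays matched their own number best. Same-numbered pairs ran from -0.48 to 0.50 with a median of 0.05, against a median of -0.01 for other pairs. With the replicate number as a block the counts were 2, 1, 2 and 0, and 4, 4 and 1. With that block 1206, 767, 770 and 649 of 10661 features passed at the 4 times, and 2404, 2032 and 593 for the changes. Signal over background is unknown, so low signal cannot be told from no difference.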
